A study of Homo sapiens with 8 samples.

Results

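NHP2, nucleolin (NCL) and the other proteins that build and house small nucleolar ribonucleoproteins (snoRNPs) were followed across hairpins in a pair of lung cancer lines. The group was named as 10 genes: NHP2, DKC1, NOP10 and GAR1 of the H/ACA snoRNPs, FBL, NOP56 and NOP58 of the C/D snoRNPs, the nucleolar proteins NCL and NPM1, and the Cajal body protein COIL. A gene was read by its brightest probe set over the 8 arrays among those whose annotation carries a single symbol, which gave 9 of the 10 genes among 18404 genes in all. NOP56 shares its probe set with a snoRNA gene and is described apart. The group was chosen on earlier results of the same arrays: NHP2 was known to differ between the PTK7 hairpins and COIL to lie low after knockdown. Values of the PTK7 hairpins are therefore given for these genes as a description with no p-value, and which of them passed a threshold is given only beside the share of all genes that did.

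Total RNA came from NCI-H1299 and NCI-H2009 cells, here H1299 and H2009, established lung cancer lines that each received a short hairpin RNA by lentivirus. Infection ran for 2 days and puromycin selection for 2 days, and RNA was collected at day 4. Each line received control hairpins against GFP and luciferase (LUC) and separate hairpins, PTK7-1 and PTK7-2, against PTK7, a receptor tyrosine kinase homologue without kinase activity that acts in Wnt signalling and planar cell polarity. Every array therefore comes from infected, selected cells, with 1 array per hairpin and line and 4 groups of 2. In each group the arrays carry different hairpins, and nothing in the labels says that cultures were repeated, so p-values measure only the spread between these arrays.

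SnoRNPs guide the chemical modification and cleavage of ribosomal RNA in the nucleolus. In H/ACA particles DKC1 converts uridine to pseudouridine, with NHP2, NOP10 and GAR1 as its partners, and the same proteins stabilise the RNA of telomerase. In C/D particles FBL methylates ribose on a scaffold of NOP56 and NOP58, NCL and NPM1 are abundant nucleolar chaperones of ribosome assembly, and COIL (coilin) organises the Cajal body, where such particles mature.

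The promoters of NHP2 and NCL are shown because both genes had by far their lowest values with PTK7-2, and that of COIL because its values were low with both PTK7 hairpins. Each line holds the 250 bases before the start of the gene in the RefSeq table of GRCh38.p14, read 5′ to 3′ on the minus strand, and capitals mark a CCAAT box (CCAAT, or ATTGG where it lies on the other strand). NHP2 covers chr5:178153886-178154135, NCL chr2:231464485-231464734 and COIL chr17:56961051-56961300.
NHP2: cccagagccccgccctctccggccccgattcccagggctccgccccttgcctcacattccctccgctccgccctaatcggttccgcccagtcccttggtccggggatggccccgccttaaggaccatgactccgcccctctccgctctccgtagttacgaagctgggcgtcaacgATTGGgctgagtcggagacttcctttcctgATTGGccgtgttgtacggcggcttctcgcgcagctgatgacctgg
NCL: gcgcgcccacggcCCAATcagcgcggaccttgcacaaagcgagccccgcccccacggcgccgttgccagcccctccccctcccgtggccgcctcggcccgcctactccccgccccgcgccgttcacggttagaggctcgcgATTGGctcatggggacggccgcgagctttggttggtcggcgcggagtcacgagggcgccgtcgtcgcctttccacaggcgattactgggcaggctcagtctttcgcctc
COIL: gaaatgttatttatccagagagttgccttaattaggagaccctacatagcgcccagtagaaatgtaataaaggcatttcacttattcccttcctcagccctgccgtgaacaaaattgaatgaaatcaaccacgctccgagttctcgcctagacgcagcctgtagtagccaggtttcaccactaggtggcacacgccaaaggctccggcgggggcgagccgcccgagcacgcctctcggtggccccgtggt
CCAAT boxes begin 75 and 45 bases before the start in NHP2 and 237 and 109 bases before it in NCL, and COIL has no match. A CCAAT box lies in 32.0% of all 35116 promoters of this length. An E-box (CACGTG), an ETS site (CCGGAAG) and a TATA box (TATAAA), each searched on both strands and without overlap with CCAAT, have no match in these 3 windows, against 6.3%, 8.5% and 10.7% of all promoters. The 11 windows matched to the group include NOP56, with 2 each for NPM1 and GAR1 and none for NOP58. Among them 6 hold a CCAAT box, 1 an E-box, 3 an ETS site and 0 a TATA box. The GC content is 65.6% in NHP2, 72.0% in NCL and 53.6% in COIL, and the median over all promoters is 58.0%. A match describes the letters and says nothing of whether a factor binds there.

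Array medians lay between 5.31 and 5.41 on the deposited log2 scale, and Pearson r between the arrays of a group ran from 0.981 to 0.997 across genes. PTK7 was lower on both PTK7 arrays than on both control arrays of each line. Its log2 values were 5.73, 6.03, 5.63 and 5.53 for GFP, LUC, PTK7-1 and PTK7-2 in H1299, and 6.64, 6.86, 5.63 and 5.94 in H2009. PTK7 minus control hairpins was -0.30 ± 0.17 in H1299 (interval -0.70 to 0.09, limma adjusted p = 0.804). In H2009 it was -0.96 ± 0.17 (interval -1.36 to -0.57, limma adjusted p = 0.222). Over both lines neither PTK7-1 (-0.68 ± 0.19, limma adjusted p = 0.165) nor PTK7-2 (-0.58 ± 0.19, 0.176) passed against the controls. In PTK7 itself the PTK7 hairpins differed by less than the error (PTK7-1 minus PTK7-2 of -0.10 ± 0.22, SE, interval -0.62 to 0.41, limma adjusted p = 0.911). The epithelial markers KRT8 and KRT18 were high in both lines, at median percentiles of 93.5 and 99.0 among genes in H1299. KRT19, EPCAM and CDH1 were at 39.5, 10.8 and 20.3 in H1299 and between 99.2 and 99.4 in H2009. The leukocyte marker PTPRC stayed at or below percentile 3.75 on every array, while CD3E, CD14 and ITGAM reached 16.5, 28.6 and 39.0. Precision is limited by how few arrays there are, and in bulk RNA fewer cells of a kind and less RNA per cell cannot be told apart.

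NHP2 (chr5:178149463-178153885), the H/ACA subunit that contacts the guide RNA, had the widest range of the 9 genes. Its log2 values in H1299 were 9.84 and 9.87 on the GFP and LUC arrays, 9.45 on the PTK7-1 array and 7.55 on the PTK7-2 array. The H2009 values were 8.80 and 8.61 on the GFP and LUC arrays, 8.82 on the PTK7-1 array and 6.66 on the PTK7-2 array. The PTK7-2 arrays lay far below all others of their line, while PTK7-1 lay below both controls in H1299 and just above both in H2009. Against the mean of its line's controls, PTK7-2 left 20.2% of the signal in H1299 and 24.2% in H2009, which is 4.96-fold and 4.13-fold lower. PTK7-1 left 75.4% in H1299 and 109% in H2009. Over both lines PTK7-2 minus controls was -2.18 ± 0.15 (SE), the lowest of all 18404 genes, and PTK7-1 minus controls was -0.14 ± 0.15. These contrasts share their control arrays.

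**Figure D1:**
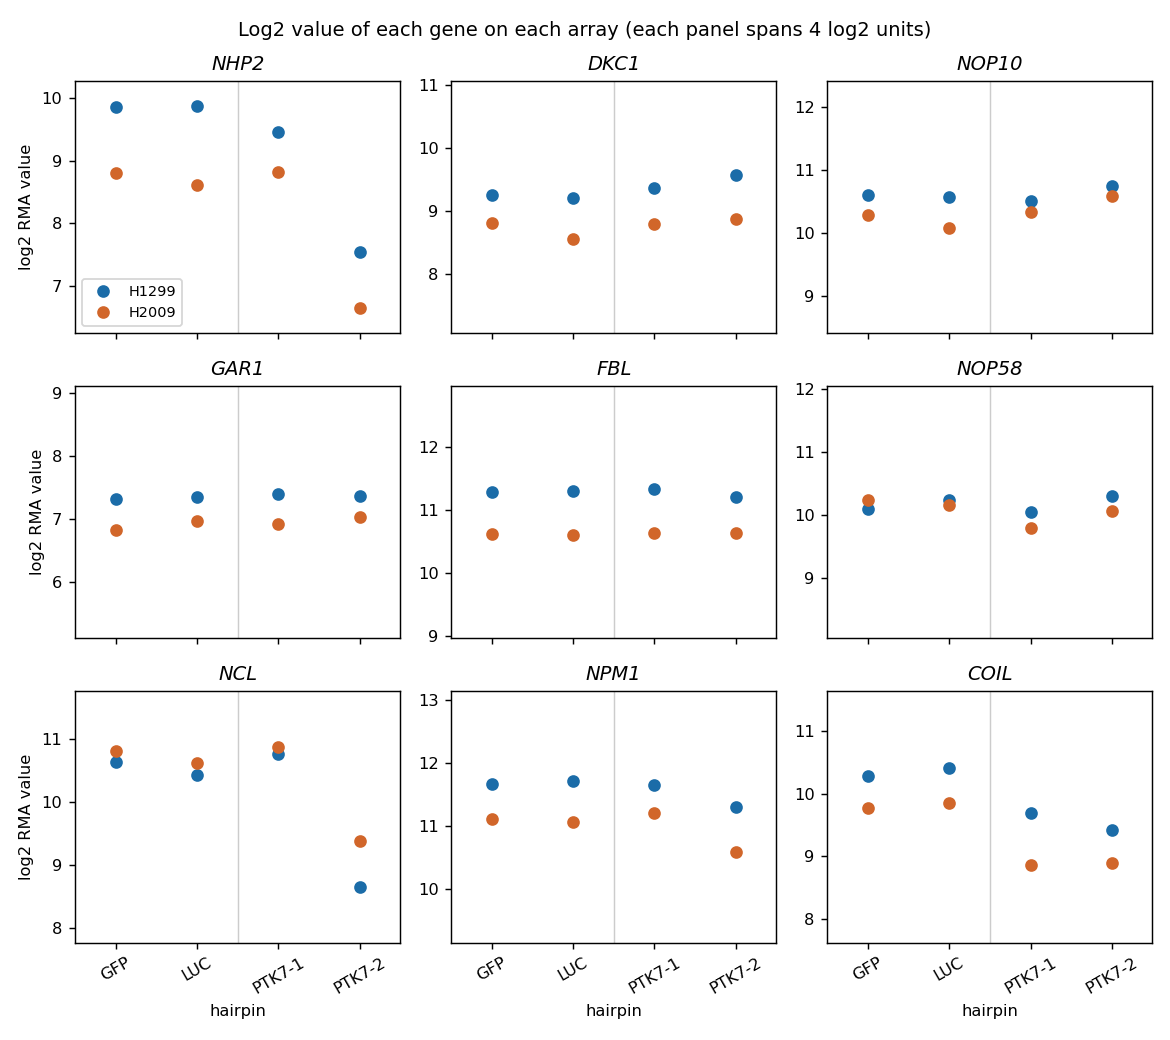
Log2 RMA value of each of the 9 genes on each of the 8 arrays, by hairpin, with H1299 in blue and H2009 in orange; each panel spans 4 log2 units and each point is 1 array. NHP2 and NCL drop far with PTK7-2 (to 7.55 and 8.66 in H1299), COIL is lower with both PTK7 hairpins, and the other genes vary by less. In H1299 NHP2 is also below both controls with PTK7-1 (9.45).

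A separate NHP2 probe set (8116168) had lower values and was also lowest with PTK7-2 in each line, with PTK7-1 below both controls in H1299 and above both in H2009. It read 9.05, 8.95, 8.67 and 7.24 in H1299 for GFP, LUC, PTK7-1 and PTK7-2, and 7.76, 7.77, 7.97 and 5.74 in H2009. Relative to the control means its PTK7-2 arrays were at -1.76 in H1299 and -2.02 in H2009, against -2.31 and -2.05 for the brighter probe set (7929243). The annotation credits both probe sets to the same transcripts. RefSeq lists 2 NHP2 pseudogenes, so that a share of either signal could come from a near-identical copy and the assignment is uncertain.

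NCL (chr2:231453531-231464484) encodes nucleolin, which binds ribosomal RNA precursors and is among the most abundant nucleolar proteins. Its log2 values in H1299 were 10.64, 10.43, 10.77 and 8.66 for GFP, LUC, PTK7-1 and PTK7-2. In H2009 they were 10.81, 10.63, 10.88 and 9.39. PTK7-1 lay slightly above both control arrays in each line, and PTK7-2 lay far below them. PTK7-2 left 27.2% of the control signal in H1299 and 39.8% in H2009, which is 3.68-fold and 2.52-fold lower. Over both lines PTK7-2 minus controls was -1.60 ± 0.15, rank 11 from the lowest of 18404 genes, and PTK7-1 minus controls was 0.20 ± 0.15.

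NPM1 (chr5:171387116-171410900), the nucleolar chaperone nucleophosmin, was also lowest with PTK7-2, by a smaller margin. The brightest probe set (8180409) read 11.68, 11.72, 11.66 and 11.30 in H1299 for GFP, LUC, PTK7-1 and PTK7-2, and 11.11, 11.06, 11.22 and 10.59 in H2009. PTK7-2 was the lowest array of each line. A second bright probe set (8180408) read 11.09, 11.11, 10.96 and 9.99 in H1299 and 10.03, 9.82, 10.22 and 9.14 in H2009, again lowest with PTK7-2. PTK7-2 minus controls was -0.44 ± 0.12 for the first and -0.95 ± 0.14 for the second, and the direction was shared although the sizes were not. The remaining, dim probe set (8109975) stayed between 3.08 and 3.73, near the floor of the arrays. Its lowest array was PTK7-2 in H1299 (3.41, beside 3.60 with GFP, 3.73 with LUC and 3.46 with PTK7-1) but LUC in H2009. RefSeq lists 50 NPM1 pseudogenes, so the probe sets may not read this gene alone.

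**Figure D2:**
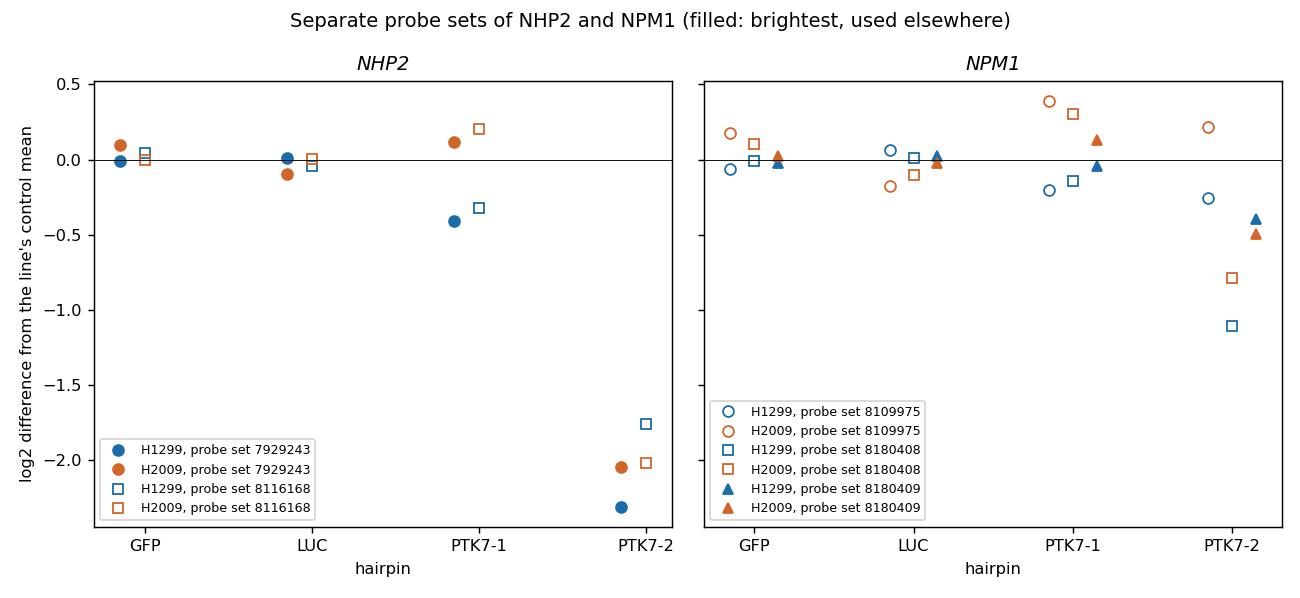
Log2 difference of each array from its line's control mean for the separate probe sets of NHP2 (left) and NPM1 (right), with H1299 in blue and H2009 in orange and the brightest probe set filled. With PTK7-2 both NHP2 probe sets lie between -1.76 and -2.31, while the NPM1 probe sets spread from -1.11 to 0.22.

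COIL (chr17:56938199-56961050), coilin, was low with both PTK7 hairpins. Its log2 values in H1299 were 10.27 and 10.40 with GFP and LUC and 9.68 and 9.42 with PTK7-1 and PTK7-2. In H2009 they were 9.78 and 9.85 with the control hairpins and 8.87 and 8.89 with PTK7-1 and PTK7-2. All 4 PTK7 arrays lay below both control arrays of their line, without overlap. PTK7-1 left 63.7% of the control signal in H1299 and 51.9% in H2009, and PTK7-2 left 53.2% and 52.9%. The group means were 10.34 ± 0.09 (SD, n = 2) under control and 9.55 ± 0.18 (SD, n = 2) under PTK7 hairpins in H1299, and 9.81 ± 0.05 (SD, n = 2) and 8.88 ± 0.02 (SD, n = 2) in H2009. PTK7-1 minus controls was -0.80 ± 0.12 and PTK7-2 minus controls was -0.92 ± 0.12, and PTK7-1 minus PTK7-2 was 0.12 ± 0.14, within its error.

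**Figure D3:**
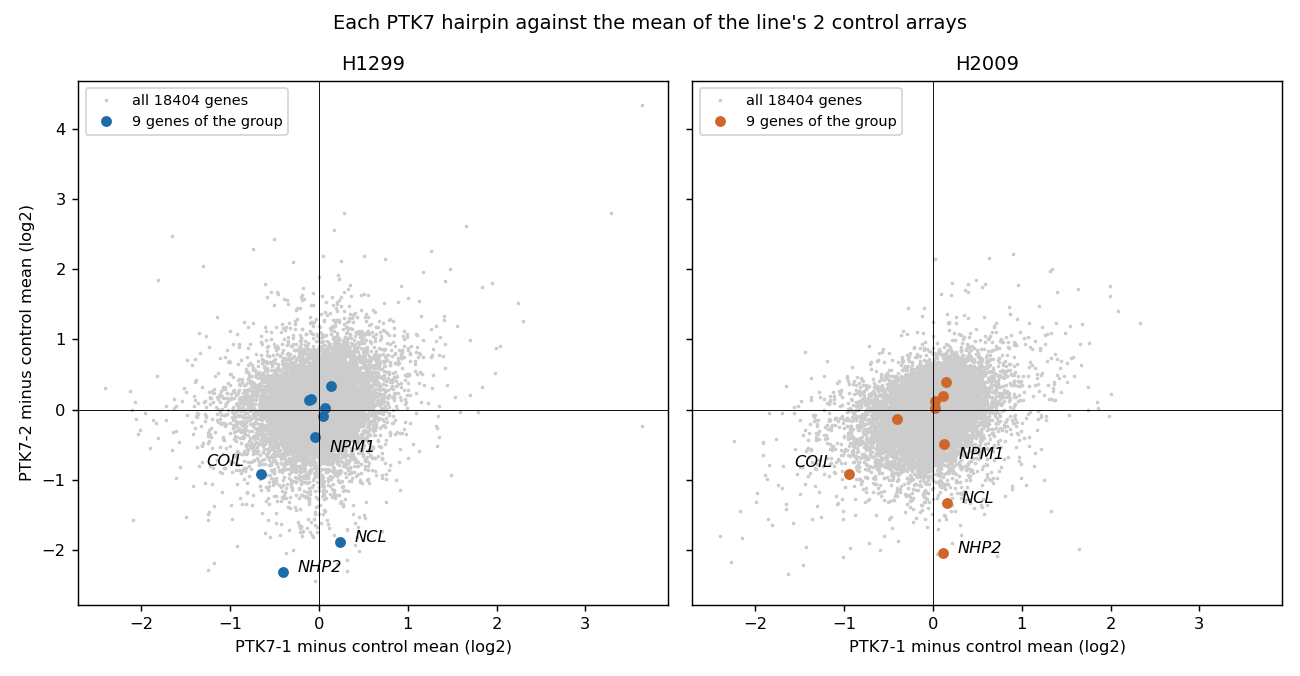
Log2 difference of PTK7-1 (x axis) and of PTK7-2 (y axis) from the mean of the line's control arrays, with all 18404 genes in grey and the 9 genes in colour; both axes use the same control arrays. NHP2 and NCL lie far down the y axis (NHP2 at -2.31 in H1299 and -2.05 in H2009), and COIL lies low on both axes. On the x axis NHP2 is at -0.41 in H1299.

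The partners of NHP2 in the H/ACA particle had narrow ranges. DKC1 (chrX:154762864-154777689), the pseudouridine synthase dyskerin, read 9.26, 9.22, 9.37 and 9.58 in H1299 for GFP, LUC, PTK7-1 and PTK7-2, and 8.81, 8.56, 8.80 and 8.88 in H2009. NOP10 (chr15:34341719-34343136), which supports the catalytic site, read 10.60, 10.56, 10.50 and 10.74 in H1299 and 10.29, 10.08, 10.34 and 10.58 in H2009. For both genes the PTK7-2 array was the highest of its line, by a small margin, whereas it was the lowest for NHP2. GAR1 (chr4:109815510-109824737), which aids substrate turnover, read 7.31, 7.34, 7.39 and 7.35 in H1299 and 6.83, 6.97, 6.92 and 7.02 in H2009. Its PTK7 arrays differed from the control mean of their line by 0.12 or less. PTK7-2 minus controls was 0.27 ± 0.11 for DKC1, 0.28 ± 0.12 for NOP10 and 0.07 ± 0.11 for GAR1.

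Of the C/D proteins, FBL differed little between hairpins and NOP58 by more. FBL (chr19:39834458-39846379), fibrillarin, read 11.29, 11.30, 11.34 and 11.21 in H1299 and 10.62, 10.61, 10.64 and 10.64 in H2009 for GFP, LUC, PTK7-1 and PTK7-2. NOP58 (chr2:202265763-202303661), a scaffold protein, read 10.10, 10.23, 10.05 and 10.31 in H1299 and 10.23, 10.15, 9.79 and 10.06 in H2009. The FBL arrays of a line were almost level, and NOP58 was lowest with PTK7-1 in each line. Relative to the control mean NOP58 was then at -0.11 in H1299 and -0.40 in H2009, and its PTK7-1 minus controls was -0.26 ± 0.13. The probe set that carries both NOP56 and SNORD56 (8060484), outside the rule, read 7.41, 7.42, 8.07 and 6.68 in H1299 and 6.74, 6.55, 6.70 and 6.13 in H2009. It was lowest with PTK7-2 in each line, and the protein gene and the snoRNA cannot be told apart in it. A probe set shared by DKC1 and SNORA56 (8170992) read 6.15, 6.21, 6.58 and 5.31 in H1299 and 5.36, 5.30, 6.38 and 4.33 in H2009. Its order of hairpins was unlike that of DKC1 alone, with PTK7-1 highest and PTK7-2 lowest.

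In limma fits of hairpin plus line, 686 of 18404 genes (3.73%) had an adjusted p under 0.05 between PTK7-1 and PTK7-2, of which 2 were in the group, NHP2 (2.03 ± 0.17) and NCL (1.80 ± 0.18). Against the controls, 226 genes (1.23%) passed for PTK7-1, with COIL as the single gene of the group. For PTK7-2, 395 genes (2.15%) passed, with NHP2, NCL and COIL. Since these contrasts chose the group, the counts are a description. With 1 array left out, the calls fell in some fits for the group and for all genes, with ranges given in the closing section. COIL ranged there from -0.95 to -0.65 for PTK7-1 minus controls. Without the H1299 PTK7-1 array the hairpin difference was 2.25 for NHP2 and 1.68 for NCL. Over 16 alternative fits COIL lost its call for PTK7-1 in 6 and for PTK7-2 in 5. NHP2 and NCL each lost the hairpin call in 1, and NCL the PTK7-2 call in 1. Averaged over hairpins and lines, 0 genes passed in a limma fit of group means (0%; 1819 at an unadjusted p under 0.05, 1 of them in the group). That fit counts the gap between the PTK7 hairpins as error. With the hairpin as a block 149 genes passed, 2 of them in the group, NHP2 and COIL. In this average the block leaves the gap between the PTK7 hairpins out of the error, so it does not test whether they agree. NHP2 passed there at -1.16 ± 0.10, although PTK7-1 minus controls was -0.14 and PTK7-2 minus controls was -2.18. Over the 9 genes the median difference was -0.04 for PTK7-1 and -0.09 for PTK7-2 in H1299, and 0.11 and -0.13 in H2009. Over all genes the same medians were 0.02, -0.02, 0.01 and 0.06.

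Contrasts that did not choose the group were tested over all genes. Under control hairpins 7 of the 9 genes had a higher mean in H1299 than in H2009, and 4 passed, each of them higher in H1299. Of all genes 24.8% passed this test, 2296 higher and 2270 lower in H1299. FBL was 0.69 ± 0.11 higher (SE, 1.61-fold, adjusted p = 0.0046), DKC1 0.56 ± 0.14 (1.47-fold, adjusted p = 0.0253), COIL 0.52 ± 0.13 (1.44-fold, adjusted p = 0.0270) and GAR1 0.43 ± 0.12 (1.35-fold, adjusted p = 0.0352). NHP2, NOP10 and NPM1 also had higher means in H1299 but did not pass in this fit. NOP10 had a difference of 0.40 ± 0.15 (adjusted p = 0.103, interval 0.05 to 0.75). NPM1 had one of 0.61 ± 0.22 (adjusted p = 0.0884, interval 0.09 to 1.12). NOP58 (-0.02 ± 0.15, adjusted p = 0.936) and NCL (-0.18 ± 0.70, adjusted p = 0.893, interval -1.83 to 1.46) did not pass either. The median of the 9 genes was 0.52, and that of all genes was 0.06. FBL alone passed when any 1 control array was left out, GAR1 also fell short with the dimmest 40% of genes removed (adjusted p = 0.0506) or a trended prior (0.101), and the lines also differ in the epithelial markers named above, whose part in these differences was not tested.

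NHP2 was 1.15 higher in H1299 under control hairpins, with a standard error of 0.77 (adjusted p = 0.358), because the fit of group means counts the gap between the PTK7 hairpins as error. Both lines received the same hairpins, and with the hairpin as a block the NHP2 difference was 1.15 ± 0.14 (interval 0.81 to 1.49, adjusted p = 0.00139). NPM1 also passed in the blocked fit (adjusted p = 0.0155), which brought the count to 6 of the 9 genes, beside 5767 genes in all. NCL did not (-0.18, interval -0.60 to 0.23).

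**Figure D4:**
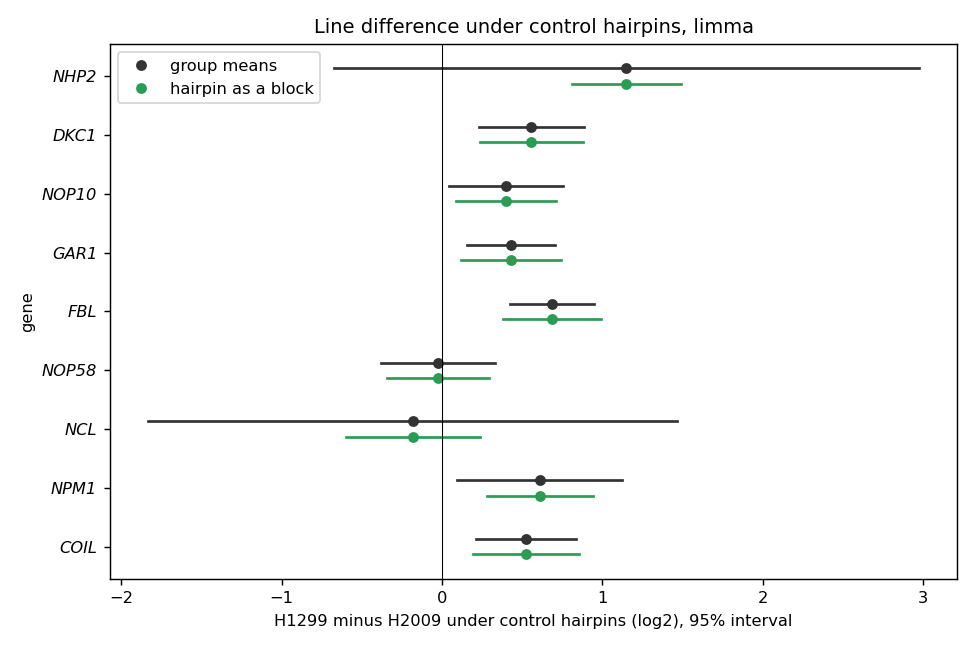
H1299 minus H2009 under control hairpins for each of the 9 genes on the log2 scale, with 95% intervals from limma for group means (black) and with the hairpin as a block (green). The intervals of FBL, DKC1, COIL, GAR1, NPM1 and NOP10, not adjusted over genes, lie above 0 in both fits. That of NHP2 narrows around 1.15 with the block.

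No gene passed the test of a difference in knockdown effect between the lines in limma (0%; 951 genes at an unadjusted p under 0.05, 0 of them in the group). Among the 9 genes the H1299 minus H2009 difference of the knockdown effect ran from -0.39 ± 1.09 for NHP2 (interval -2.97 to 2.18) to 0.28 ± 0.21 for NOP58, with adjusted p between 0.932 and 0.991. For COIL it was 0.15 ± 0.19, with an interval of -0.29 to 0.59. These intervals leave room for differences of either sign. Between GFP and LUC no gene passed in limma either (0%; 672 genes at an unadjusted p under 0.05), and the 9 genes had differences of -0.10 to 0.20, the latter for NCL.

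Assembly factors of the particles were read from lists of related genes, 137 of them measured. Between the PTK7 hairpins 8 of the 137 passed (5.84%, beside 3.73% of all genes), 4 in each direction. SHQ1, the chaperone that holds DKC1 before it joins a particle, read 8.07, 8.09, 7.11 and 7.93 in H1299 for GFP, LUC, PTK7-1 and PTK7-2, and 8.28, 8.26, 6.98 and 7.92 in H2009. ZNHIT6, an assembly factor of C/D particles, read 9.43, 9.38, 8.01 and 9.14 in H1299 and 8.76, 8.57, 7.78 and 8.64 in H2009. EIF6, which keeps the large ribosomal subunit from joining the small one too early, read 11.23, 11.30, 9.88 and 11.18 in H1299 and 10.85, 10.72, 9.45 and 10.68 in H2009. For these 3 genes PTK7-1, not PTK7-2, was the low array in each line, the reverse of NHP2 and NCL. PTK7-1 minus controls was -1.13 ± 0.12 for SHQ1, -1.14 ± 0.14 for ZNHIT6 and -1.36 ± 0.11 for EIF6. They were the genes of the lists that passed that test (3 of 137, 2.19%, beside 1.23% of all genes). Without the H1299 PTK7-1 array the values were -1.25, -0.92 and -1.33 and none of the 3 passed, and over 16 alternative fits SHQ1 lost this call in 5, ZNHIT6 in 6 and EIF6 in 2.

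Other listed genes differed between the PTK7 hairpins in the direction of NHP2 and NCL. NOLC1, a chaperone that shuttles snoRNPs between nucleolus and Cajal body, read 10.16, 10.12, 10.36 and 9.59 in H1299 and 9.89, 9.72, 10.11 and 9.42 in H2009, and PTK7-1 minus PTK7-2 was 0.73 ± 0.13. SDAD1, of the large subunit pathway, had a difference of 0.98 ± 0.16, which also passed, but with the mean of its probe sets it was 0.59 and did not. USPL1, a Cajal body protein, and the helicase DDX10 passed as well, each at 0.71 ± 0.14, with the wider gap to the controls on the PTK7-1 side. USPL1 was at 0.58 ± 0.12 for PTK7-1 minus controls and -0.13 ± 0.12 for PTK7-2 minus controls, and DDX10 at 0.46 ± 0.12 and -0.26 ± 0.12, none of which passed. GEMIN7, of the SMN complex, passed in the other direction (-0.62 ± 0.13). Against the controls, SDAD1 (-1.12 ± 0.14) and RPAP3, a cochaperone of C/D assembly (-0.76 ± 0.13), passed for PTK7-2, SDAD1 being at -0.73 with the mean of its probe sets. They were 2 of the 137 listed genes (1.46%, beside 2.15% of all genes). SDAD1 values were 9.08, 8.61, 8.73 and 7.52 in H1299 and 8.93, 8.73, 8.65 and 7.90 in H2009, the PTK7-2 array being lowest. The 8 hairpin differences did not pass without the H1299 PTK7-1 array, where NOLC1 was at 0.74 and SDAD1 at 0.88. Over 16 alternative fits GEMIN7 lost this call in 11, USPL1 in 9, DDX10 and NOLC1 in 7 each, ZNHIT6 in 6, SHQ1 in 5, SDAD1 in 4 and EIF6 in 2. Also, SDAD1 (-1.05) and RPAP3 (-0.78) did not pass against the controls without the H1299 GFP array. MYC, a known regulator of NCL and of ribosome synthesis, read 10.68, 10.53, 10.74 and 10.19 in H1299 and 10.09, 9.63, 10.15 and 9.88 in H2009. Its hairpin difference of 0.41 ± 0.16 did not pass (adjusted p = 0.235).

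**Figure D5:**
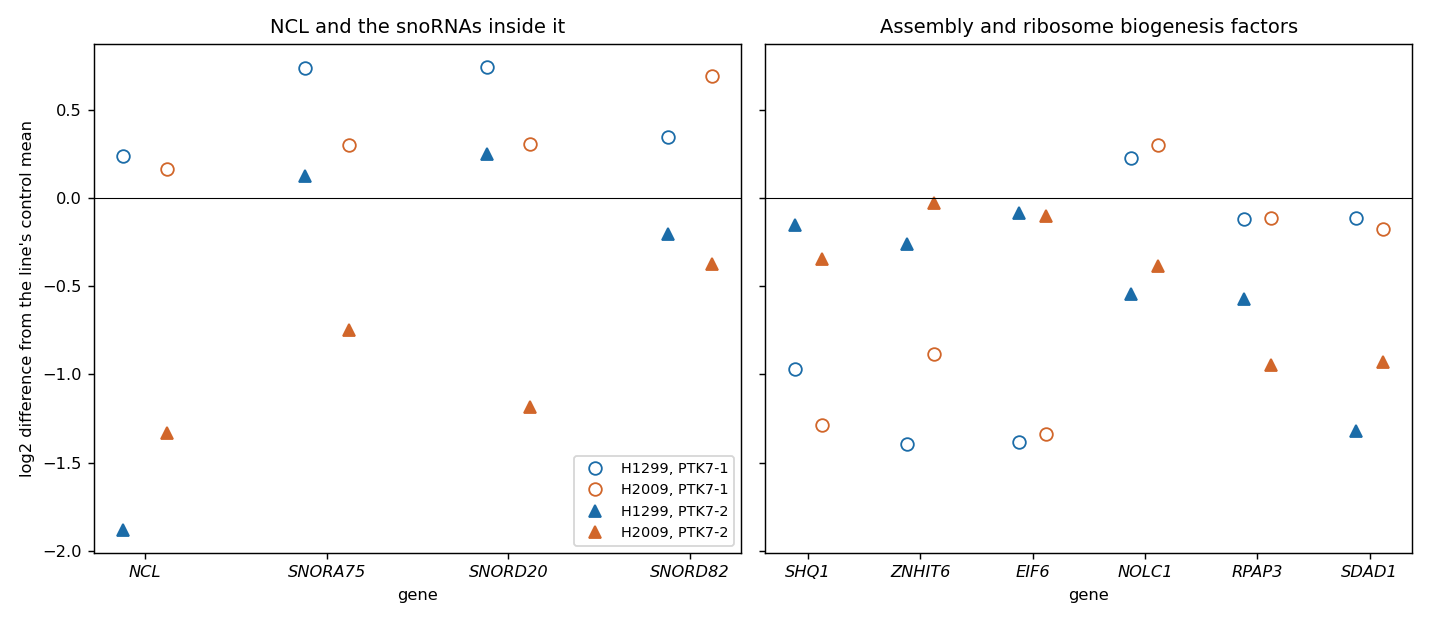
Log2 difference from the line's control mean on the 4 PTK7 arrays for NCL and the snoRNAs inside it (left) and for 6 assembly and ribosome biogenesis factors (right); open circles are PTK7-1 and triangles PTK7-2, in blue for H1299 and orange for H2009. SHQ1, ZNHIT6 and EIF6 are low with PTK7-1, and NCL, RPAP3 and SDAD1 with PTK7-2.

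Under control hairpins 41 of the 137 listed genes differed between the lines (29.9%, beside 24.8% of all genes), 33 higher and 8 lower in H1299. The small subunit processome had 12 of 40 genes higher and 2 lower, among them EMG1, a methyltransferase of ribosomal RNA, at 1.49 ± 0.17. Large subunit assembly had 12 of 36 higher and 1 lower, with a median of 0.46. NOP16 was 1.33 ± 0.15 higher there, MAK16 1.24 ± 0.15 higher, and BRIX1 was the lower gene at -0.98 ± 0.12. The nucleolar scaffold and RNA polymerase I list had 5 of 19 higher and 3 lower, with POLR1C at 1.45 ± 0.15. Of the C/D assembly list 1 of 10 was higher and 1 lower, and RUVBL1, an ATPase of snoRNP assembly, was the single called gene of 11 in the H/ACA list at 0.77 ± 0.18. The Cajal body and SMN list had 2 of 17 higher and 1 lower, the latter ICE1 at -1.30 ± 0.12. The MYC list had 1 of 9 higher, MXI1 at 0.83 ± 0.13.

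NCL is also a host gene: snoRNAs are cut from the introns of several of these genes. RefSeq coordinates place 14 snoRNA genes inside NCL, DKC1, NOP56 and NOP58, of which 5 were measured by a probe set of their own. SNORA75, inside NCL, read 7.90, 7.60, 8.48 and 7.87 in H1299 for GFP, LUC, PTK7-1 and PTK7-2, and 7.60, 7.85, 8.02 and 6.98 in H2009. SNORD82, also inside NCL, read 6.43, 6.56, 6.84 and 6.29 in H1299 and 5.97, 6.09, 6.72 and 5.66 in H2009, with PTK7-1 above and PTK7-2 below both controls in each line. SNORD20, in the same gene, read 5.17, 4.48, 5.57 and 5.07 in H1299 and 4.77, 5.17, 5.28 and 3.79 in H2009. With PTK7-2, SNORA75 and SNORD20 lay above the control mean in H1299 (0.12 and 0.25) and below it in H2009 (-0.75 and -1.19). PTK7-2 minus controls was -0.31 ± 0.21 for SNORA75, -0.47 ± 0.33 for SNORD20 and -0.29 ± 0.14 for SNORD82, all smaller than the -1.60 ± 0.15 of the host, and none passed the test (adjusted p of 0.550, 0.565 and 0.348). Without the H2009 PTK7-2 array the direction turned for SNORA75 (0.05) and SNORD20 (0.17), and without the H1299 PTK7-2 array they were at -0.68 and -1.11. Between the PTK7 hairpins SNORD82 passed (0.81 ± 0.16, adjusted p = 0.0376, and 0.0686 to 0.189 when 1 array was left out), while SNORA75 (0.83 ± 0.25, adjusted p = 0.120) and SNORD20 (0.99 ± 0.38, adjusted p = 0.216) did not. Inside NOP56, SNORA51 ran from 5.12 to 5.82 and SNORD57 from 10.60 to 11.32, and SNORD57 was 0.57 ± 0.16 higher in H1299 under control hairpins (adjusted p = 0.042).

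Over the 8 arrays, after each line's mean was subtracted, the profiles most like NHP2 were those of C14orf93, NAA15 and IDH3A, each with a Pearson r of 0.99. NAA15, of the N-terminal acetyltransferase complex, read 9.48, 9.46, 9.38 and 8.75 in H1299 for GFP, LUC, PTK7-1 and PTK7-2, and 9.86, 9.70, 9.80 and 9.21 in H2009. IDH3A, a subunit of the mitochondrial isocitrate dehydrogenase, read 10.10, 9.93, 9.70 and 8.93 in H1299 and 10.63, 10.61, 10.70 and 9.67 in H2009. For COIL they were DSC2 and INTS9 (r of 0.99) and FRRS1 (r of 0.98). DSC2, a desmosomal cadherin, read 7.42, 7.72, 6.32 and 6.08 in H1299 and 9.22, 9.19, 7.85 and 7.66 in H2009. Each of these correlations rests on the arrays that stand apart, PTK7-2 for NHP2 and all PTK7 arrays for COIL, and is a description. Within the group the same measure was 0.96 between NHP2 and NCL, 0.97 between NHP2 and NPM1 and 0.67 between NHP2 and COIL, and it was -0.75 between NHP2 and each of DKC1 and NOP10.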

How the data were processed

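The authors deposited log2 expression values per probe set, which the submitters' processing notes credit to RMA and R 2.14.0. That method corrects background, normalizes between arrays and summarises probes, and small differences of dim genes are compressed. The array annotation gave 1 symbol for 19158 of 32321 probe sets and more than 1 for 1388, and did not name 11775. The brightest probe set was kept for 637 genes with several, which left 18404 genes, and 19128 probe sets matched the current gene table by gene ID with 0 symbols updated.

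Contrasts were fitted with limma 3.58.1 in R 4.3.3 over all 8 arrays and all genes, with Benjamini-Hochberg adjustment and a threshold of 0.05. Line contrasts, the knockdown within a line and the averaged knockdown used group means, and hairpin contrasts a mean per hairpin plus line. Errors after ± are standard errors unless marked SD, intervals are 95%. A simulation with independent noise on each array checked that the fits returned the differences put in. It left out the deviation that arrays of a hairpin share, so it does not test the error rates of this design. Per the labels both lines received the same hairpins, and arrays of the same hairpin deviated together, with r between lines of 0.230 (control) and 0.407 (PTK7), so a fit with hairpin as a block was run beside each group-mean contrast.

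The 10 genes, the related lists and the tests were chosen with earlier results of these data known. Genes named beyond them were up to 3 per list by unadjusted p in each of the control line, averaged and PTK7 hairpin contrasts, the 3 most like NHP2 and COIL, and snoRNAs inside the 10 genes by RefSeq (GRCh38.p14) coordinates. Their strand was not checked. RPAP3 and SDAD1 fall under the list rule too. Alternatives were other normalizations, filters, priors and probe set rules, the block, and leaving out each array. Fitting every single-symbol probe set was chosen after seeing the data. Plots used matplotlib 3.10.9 (Python 3.11.15).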

Additional observations from a re-analysis of the deposited data

How the results depend on the processing

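No direction of a called value reversed under any alternative. Leaving out each array in turn moved the number of the 9 genes past the threshold from 4 to a range of 1 to 5 for the control line difference (4566 genes in all fell to as few as 2196), from 2 to a range of 0 to 2 between PTK7 hairpins (686 genes, 0 to 943), from 1 to a range of 0 to 1 for PTK7-1 minus controls (226 genes, 0 to 347) and from 3 to a range of 1 to 3 for PTK7-2 minus controls (395 genes, 18 to 545). With the hairpin as a replicate block, 2 of the 9 genes passed in the averaged contrast, where 0 did without it, and 149 genes did in all. There the block leaves the gap between the PTK7 hairpins out of the error. Other settings gave 175 to 373 genes for PTK7-1 minus controls. A trended prior let the brightest NPM1 probe set pass, which gave 3 of the 9 genes between PTK7 hairpins and 4 for PTK7-2 minus controls. When every single-symbol probe set was fitted with the ordinary prior, the second bright NPM1 probe set (8180408) had a limma adjusted p under 0.05 in both contrasts. The call of NPM1 therefore also turned on which probe set was read. GAR1 lost its line difference with the dimmest 40% of genes removed (adjusted p = 0.0506) and with a trended prior (adjusted p = 0.101). The cause of these changes was not tested, and with 2 arrays per group leaving out 1 assumes that the lone array varies like the others. The line difference of knockdown and the control hairpin difference kept 0 of the 9 genes under every alternative. Differences of genes near the floor, such as the dim NPM1 probe set, are limited by signal over background.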
